A study of Arabidopsis thaliana with 15 samples.

Results

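AT5G45060 and AT4G19530 are 2 Arabidopsis thaliana genes of the TIR-NBS-LRR family, the immune receptors that join a TIR domain, a nucleotide-binding site and leucine-rich repeats. They were taken as the probe sets whose single listed gene is one of them, which gave 248974_at for AT5G45060 on chromosome 5 and 254553_at for AT4G19530 on chromosome 4. These are 2 of the 13286 genes that have a probe set of their own on the array. Both genes were chosen by their measured levels, which set the genotypes apart on these same arrays, so their levels and differences are given as a description, without a test. The study measured whole seedlings that had grown for 5 days in light on solid medium with 1% sucrose, on 15 Affymetrix ATH1 arrays. It asked how gene expression changes in the brassinosteroid receptor mutant bri1-5 and in lines whose second, dominant mutation suppresses bri1-5.

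The 5 genotypes were each represented by 3 biological replicates, per the study's design, with 1 array per replicate, and all were in the WS2 background. WS2 was the wild type. The bri1-5 line carries a weakened allele of BRI1, the cell surface receptor for brassinosteroids. The other lines carry bri1-5 together with a dominant suppressor and are bri1-5/bri1-1D, bri1-5/bak1-1D and bri1-5/brs1-1D, called bri1-1D, bak1-1D and brs1-1D from here on. BAK1 is a co-receptor of BRI1 and of immune receptors at the cell surface, and BRS1 is a secreted serine carboxypeptidase-like protein. All 4 mutant lines therefore share bri1-5, and no array shows a suppressor in a wild-type BRI1 background. How the dominant alleles were made is not given in the sources used here.

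TIR-NBS-LRR proteins sit inside the plant cell and detect pathogen effectors or the damage these do to host proteins. Once active, their TIR domains act as enzymes on nucleotides, and the small molecules they make are read by complexes of EDS1 with PAD4 or SAG101, which pass the signal to helper receptors and to salicylic acid defence. The genes of this family often stand in clusters on the chromosomes, and their transcripts are kept at moderate levels in unchallenged plants, where too much receptor can set off immunity. Neither AT5G45060 nor AT4G19530 has a gene name in the annotation used, and no function of either protein is taken as known here.

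Levels are on the log2 scale, 1 value per probe set and array, as the authors obtained them with GCRMA. A difference of 1 is a 2-fold difference. A probe set was tested where it stood above log2 4 on at least 3 of the 15 arrays, and 15912 of the 22810 probe sets passed. Both genes stood above that level on 15 of 15 arrays. The medians of the arrays over the tested probe sets lay between 6.75 and 6.82. The leaf marker RCA, rubisco activase, stood at 13.07 to 13.28 on all arrays, and the root marker PYK10, a beta-glucosidase of root endoplasmic reticulum bodies, at 11.82 to 12.10. Transcripts of both organs were thus read in every sample. None of the 11 seed and flower markers had a tested probe set of its own. In whole seedlings, fewer cells of a type and less RNA per cell cannot be told apart.

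AT5G45060 was highest in bri1-5 and stood at 5.98 to 6.21 on all arrays of the other 4 genotypes. Its log2 values in WS2 were 5.98, 6.03 and 6.20 for replicates 1 to 3. In bri1-5 they were 6.46, 6.56 and 6.61. Every bri1-5 array lay above every WS2 array, with a gap of 0.26 between the groups. The values were 6.16, 6.21 and 6.0 in bri1-1D, 6.10, 5.98 and 6.11 in bak1-1D, and 6.11, 6.04 and 6.11 in brs1-1D. These 9 suppressor arrays overlapped with the WS2 arrays and all lay below the 3 bri1-5 arrays.

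The genotype means of AT5G45060 were 6.07 ± 0.113 in WS2, 6.54 ± 0.077 in bri1-5, 6.12 ± 0.113 in bri1-1D, 6.06 ± 0.073 in bak1-1D and 6.09 ± 0.040 in brs1-1D (SD, n = 3 each). In order they ran bri1-5, bri1-1D, brs1-1D, WS2 and bak1-1D, and of the 4 neighbouring pairs in that order only bri1-5 and bri1-1D had no overlap. Relative to WS2, AT5G45060 was 1.39-fold higher in bri1-5, a log2 difference of 0.47 with a standard error (SE) of 0.08. The corresponding differences from WS2 were 0.05 in bri1-1D, 0.00 in bak1-1D and 0.02 in brs1-1D, each smaller than the SE of 0.08. Relative to bri1-5, the gene was 1.34-fold lower in bri1-1D (-0.42), 1.39-fold lower in bak1-1D (-0.48) and 1.37-fold lower in brs1-1D (-0.45). These comparisons share the same bri1-5 arrays, so a high bri1-5 level enters each of them. Between the suppressor lines the differences were -0.06 for bak1-1D minus bri1-1D, -0.03 for brs1-1D minus bri1-1D and 0.03 for brs1-1D minus bak1-1D. Of the 15912 tested probe sets, 89 had all bri1-5 arrays above all arrays of the other 4 genotypes, or 0.559%. AT5G45060 was one of these by its choice.

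**Figure D1:**
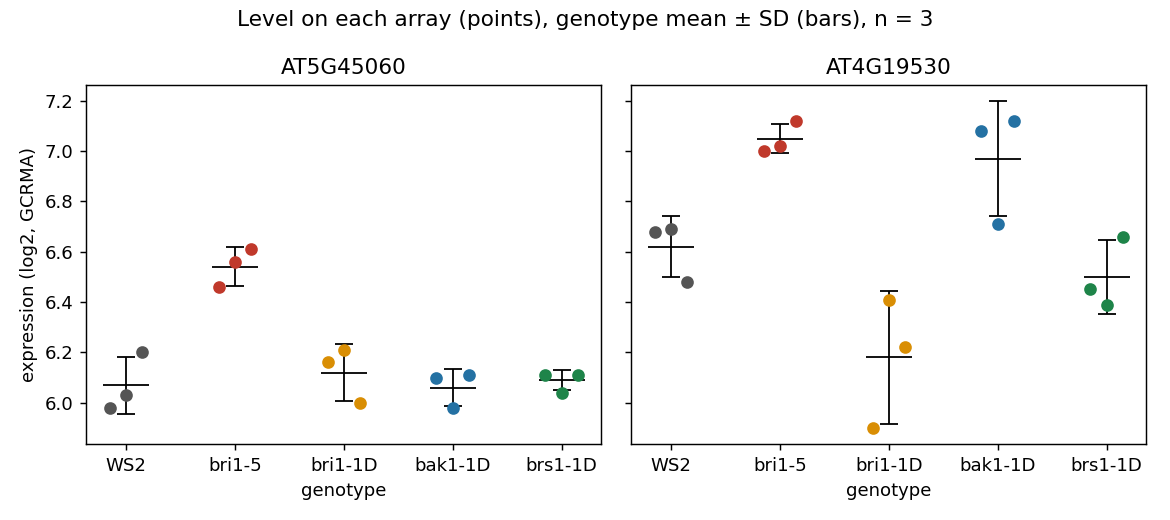
Log2 expression (GCRMA) of AT5G45060 and AT4G19530 on each of the 15 arrays (points), with the mean and SD of each genotype (bars, n = 3). The 3 bri1-5 arrays of AT5G45060 lie at 6.46 to 6.61, above the 12 others, while AT4G19530 is high in bri1-5 and bak1-1D and lowest in bri1-1D; levels cannot be compared between the panels, since probe sets bind with different strength.

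AT4G19530 shared the higher level in bri1-5, but its suppressor lines went different ways. Its log2 values in WS2 were 6.68, 6.69 and 6.48, and in bri1-5 they were 7.0, 7.02 and 7.12. The bri1-5 arrays again lay above all WS2 arrays, here with a gap of 0.31. In bri1-1D the values were 5.90, 6.41 and 6.22. All bri1-1D arrays lay below all WS2 arrays, though the gap was 0.06, smaller than the SD of 0.263 among the bri1-1D arrays. In bak1-1D the values were 7.08, 6.71 and 7.12, and in brs1-1D they were 6.45, 6.39 and 6.66. Replicates 1 and 3 of bak1-1D stood within or at the top of the range of bri1-5, replicate 2 stood next to the highest WS2 array, and the brs1-1D arrays overlapped with WS2 and with bri1-1D.

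The means of AT4G19530 were 6.62 ± 0.121 in WS2, 7.05 ± 0.059 in bri1-5, 6.18 ± 0.263 in bri1-1D, 6.97 ± 0.228 in bak1-1D and 6.50 ± 0.146 in brs1-1D (SD, n = 3 each). In order they ran bri1-5, bak1-1D, WS2, brs1-1D and bri1-1D. Of the 4 neighbouring pairs in that order, bak1-1D and WS2 were parted by a gap of 0.02 and the other 3 pairs overlapped. Relative to WS2, the gene was 1.35-fold higher in bri1-5 (0.43, SE 0.13), 1.28-fold higher in bak1-1D (0.35) and 1.36-fold lower in bri1-1D (-0.44). The difference in brs1-1D was -0.12, within the SE. Relative to bri1-5, whose arrays are shared by all of these comparisons, it was 1.83-fold lower in bri1-1D (-0.87), with a gap of 0.59 between the groups. It was 1.46-fold lower in brs1-1D (-0.55), and in bak1-1D the difference was -0.08 with overlapping arrays. Between the suppressor lines, bak1-1D stood 1.73-fold above bri1-1D (0.79) and brs1-1D 1.38-fold below bak1-1D (-0.47, gap 0.04). The difference of brs1-1D from bri1-1D was 0.32, with overlapping arrays. In 375 tested probe sets, or 2.36%, all bri1-1D arrays lay below all WS2, bri1-5 and bak1-1D arrays, and AT4G19530 belonged to these by its choice.

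**Figure D2:**
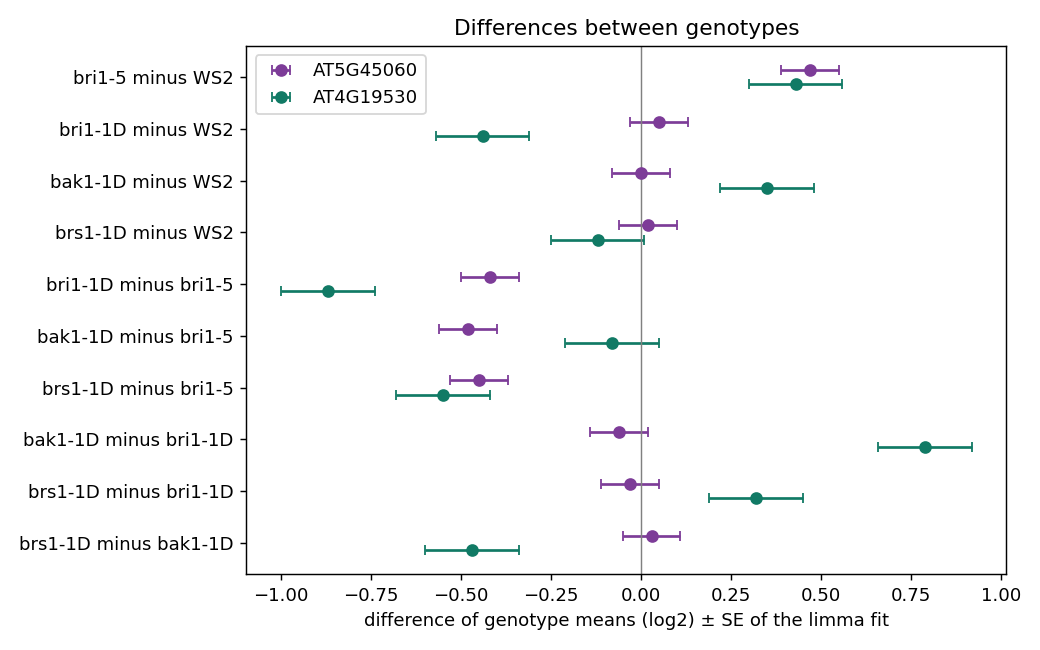
Differences between genotype means (log2, first named minus second) for AT5G45060 and AT4G19530 in the 10 comparisons, with bars of 1 SE from the limma fit over 15912 probe sets. The points lie close together for bri1-5 minus WS2 (0.47 and 0.43) and farthest apart for bak1-1D minus bri1-1D (-0.06 and 0.79).

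The genes also differed in how much replicates scattered. The residual SD within genotypes was 0.088 for AT5G45060 and 0.179 for AT4G19530, on either side of the median of 0.125 over all tested probe sets. Differences between genotypes accounted for 86.8% of the variance of AT5G45060 and 82.5% of that of AT4G19530. High shares come with the choice of these genes, and the share over all tested probe sets was not computed. Over the 15 arrays the levels of AT5G45060 and AT4G19530 correlated with r = 0.47, and the deviations from the genotype means with r = 0.18. This is a description, since arrays of a genotype share that genotype. The control probe set for the large cytosolic ribosomal RNA, which was not tested with the genes, stood at 6.10 to 6.27 in WS2, 7.01 to 7.68 in bri1-5, 7.94 to 8.5 in bri1-1D, 6.38 to 7.30 in bak1-1D and 6.24 to 7.13 in brs1-1D. It was thus highest in bri1-1D, where AT4G19530 was lowest, and higher in bri1-5 than in WS2. The control for 5S rRNA ran the other way between WS2 (6.62 to 7.45) and bri1-5 (5.85 to 6.88), with overlapping arrays, and stood at 5.86 to 7.0 in bri1-1D, 5.57 to 6.85 in bak1-1D and 6.06 to 6.77 in brs1-1D. The part of either RNA in these differences was not tested. Of the root hair expansins, EXPA7 ranged from 4.66 to 5.22 in bri1-5 and from 4.67 to 5.02 in bri1-1D, against 5.00 to 5.49 in WS2, 5.23 to 5.65 in bak1-1D and 5.40 to 5.55 in brs1-1D. EXPA18 ranged from 5.25 to 5.60 in bri1-5 and from 5.23 to 5.59 in bri1-1D, against 5.67 to 5.88 in WS2. In bak1-1D (5.57 to 6.05) it overlapped with the arrays of WS2, bri1-5 and bri1-1D. In brs1-1D (5.61 to 6.04) it overlapped with WS2 and lay narrowly above all bri1-5 and bri1-1D arrays. Against bri1-1D, EXPA7 was 0.57 higher in bak1-1D and 0.67 higher in brs1-1D (limma's Benjamini-Hochberg adjusted p = 0.029 and 0.0329). For EXPA18 these differences were 0.37 and 0.35 (adjusted p = 0.103 and 0.216). Against bri1-5, EXPA7 was 0.53 higher in bak1-1D and 0.63 higher in brs1-1D (adjusted p = 0.0688 and 0.0517). EXPA18 was 0.35 and 0.33 higher against bri1-5 in the same lines (adjusted p = 0.182 and 0.257). The part of root hairs in the differences was not tested either.

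The other genes of the TIR family moved in both directions. The family list holds 105 further genes with a TIR domain and a nucleotide-binding site or with a TIR domain alone, of which 74 had a probe set of their own and 29 were tested. The other 45 with a probe set were too dim for the filter. A gene is called changed in what follows where limma's Benjamini-Hochberg adjusted p over all 15912 probe sets was under 0.05. By that rule 16 of the 29 were called in at least 1 of the 10 comparisons and 13 in none, where 38.3% of all tested probe sets were called in at least 1. All bri1-5 arrays lay above the 12 others in 0 of the 29, beside 0.559% of all tested probe sets. All bri1-1D arrays lay below all WS2, bri1-5 and bak1-1D arrays in 1 of the 29, AT5G22690, beside 2.36% of all. Both counts are near what these shares give for 29 genes and are no result about the family.

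Against WS2, bri1-5 had 8 of the 29 family genes called, 5 higher and 3 lower, where 17.6% of all tested probe sets were called. The median difference of the 29 was 0.12, beside 0.02 over all tested probe sets. AT1G72900 fell most, by 1.38 on the log2 scale (SE 0.11, adjusted p = 8.01e-07), from 7.38 to 7.52 in WS2 to 5.95 to 6.12 in bri1-5. AT1G72920 fell by 1.22 (SE 0.17, adjusted p = 0.000174), from 4.89 to 5.31 in WS2 to 3.64 to 4.35, which is around or under the filter of log2 4. With values under 4 set to 4, its difference was -1.01 (adjusted p = 0.0002). AT5G38850 rose by 0.74 (SE 0.12, adjusted p = 0.000856), from 4.31 to 4.48 in WS2 to 5.05 to 5.23. Both falls were larger than the differences of 0.47 and 0.43 by which AT5G45060 and AT4G19530 stood higher. The count was 5 without bri1-5 replicate 1 or 3, and likewise without bak1-1D replicate 1 or 3, which enter only through the shared spread. With the replicate number as a block, 10 were called, with AT5G18370 (0.34, adjusted p = 0.0277, against 0.0503 without the block) and AT4G09420 (0.39, adjusted p = 0.0487, against 0.0517) added.

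In bri1-1D, 8 family genes were called against WS2, 4 higher and 4 lower, where 20.7% of all probe sets were called, and the median difference was 0.06 beside 0.02. AT1G72900 fell by 1.38 (adjusted p = 1.25e-06), AT3G04210 by 0.89 (SE 0.27, adjusted p = 0.0306) and AT1G72920 by 0.87 (adjusted p = 0.00182). The count fell to 5 on leaving out WS2 replicate 3 or bri1-1D replicate 2, and to 4 on leaving out bri1-1D replicate 1. The call of AT3G04210 ended when WS2 replicate 2 or 3 or bri1-1D replicate 1 or 3 was left out, with adjusted p up to 0.113.

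In brs1-1D, 9 family genes were called against WS2, 6 higher and 3 lower, where 20.4% of all probe sets were called, and the median difference was 0.10 beside 0.01. AT1G72900 fell by 1.06 (adjusted p = 9.98e-06) and AT1G72920 by 0.69 (adjusted p = 0.00781). AT5G38850 rose by 0.86 (adjusted p = 0.000173).

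In bak1-1D, 7 of the 29 were called against WS2, where 10% of all probe sets were called. All 7 were higher, where 4.88% of all probe sets were called higher, and the median difference was 0.16 beside -0.02. AT5G58120 rose by 0.63 (SE 0.09, adjusted p = 0.000684), from 5.62 to 5.91 in WS2 to 6.35 to 6.49. AT5G22690 rose by 0.51 (SE 0.12, adjusted p = 0.0152) and AT4G36150 by 0.50 (SE 0.13, adjusted p = 0.0261). AT1G72900, lower than WS2 in the other mutants, stood at 6.95 to 7.31 here, between their levels and that of WS2. The count depended on single arrays: it was 2, 2 and 4 without WS2 replicates 1, 2 and 3, and 1, 4 and 3 without bak1-1D replicates 1, 2 and 3. The calls of AT5G22690 and AT4G36150 ended in 4 such fits each (adjusted p up to 0.0709 and 0.102), without WS2 replicate 1 or 2 and bak1-1D replicate 1 for both, and without bak1-1D replicate 2 for AT5G22690 and 3 for AT4G36150.

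**Figure D3:**
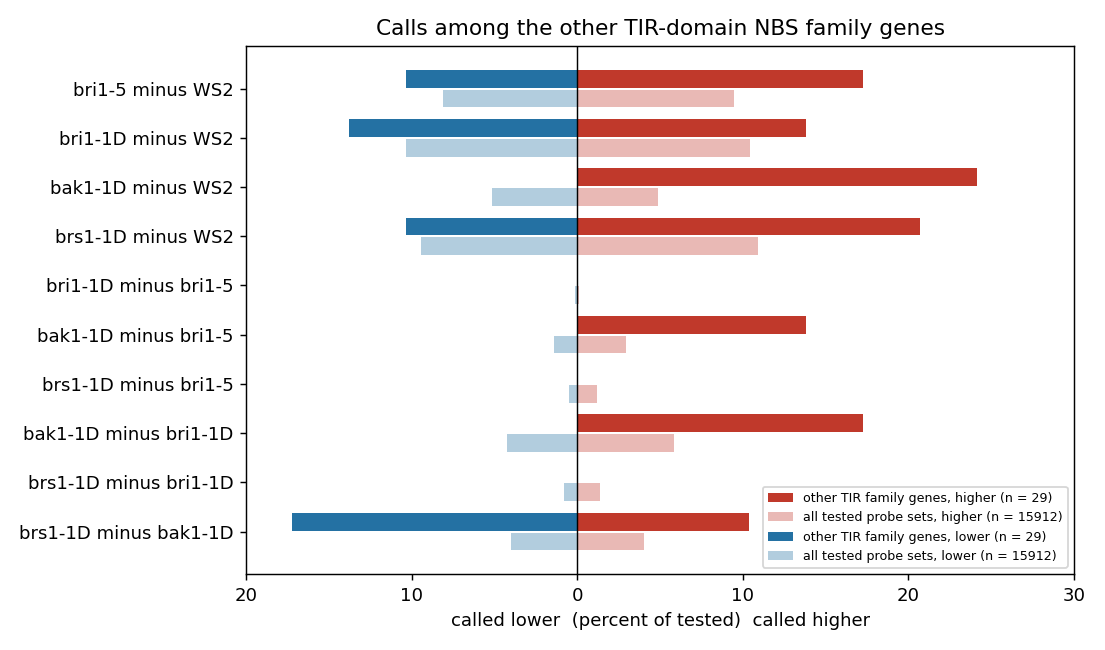
Share of the 29 other tested TIR family genes (dark bars) and of all 15912 tested probe sets (pale bars) called higher (right) or lower (left) in each of the 10 comparisons, in percent. In bak1-1D against WS2, bri1-5 and bri1-1D the family bars run to the right only, from 7, 4 and 5 genes.

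Against their bri1-5 parent, none of the 29 was called in bri1-1D, where 0.245% of all probe sets were called, or in brs1-1D, where 1.72% were. The median differences were -0.06 in bri1-1D and 0.01 in brs1-1D. An unadjusted limma p under 0.05 was found for 9 of the 29 in bri1-1D, where 10% of all probe sets had one, and for 6 in brs1-1D, where 16.1% had. With the replicate number as a block, AT1G63750 was called lower in brs1-1D than in bri1-5 (adjusted p = 0.048, against 0.0721 without), and 410 probe sets in place of 273. Without any 1 of WS2 replicate 2, bri1-1D replicate 1 or bri1-5 replicate 2 1 family gene was called in brs1-1D, and without brs1-1D replicate 1 there were 2. In bri1-1D and brs1-1D the differences from bri1-5 were -0.42 and -0.45 for AT5G45060, and -0.87 and -0.55 for AT4G19530.

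In bak1-1D, 4 of the 29 were called against bri1-5, where 4.34% of all probe sets were called. All 4 were higher, where 2.94% of all probe sets were higher, and the median difference was 0.06 beside -0.04. AT1G72900 rose by 1.12 (adjusted p = 9.11e-05), AT1G72920 by 0.74 (adjusted p = 0.0173; 0.53 with values under log2 4 set to 4) and AT5G22690 by 0.55 (adjusted p = 0.018). AT5G45060 lay the other way, at -0.48, and AT4G19530 at -0.08. The count was 1 without bri1-5 replicate 1, and 2 without any 1 of bri1-5 replicates 2 and 3 and bak1-1D replicates 1 and 2. The call of AT1G72920 ended without bri1-5 replicate 1 or 3 or bak1-1D replicate 2, and that of AT5G22690 without bri1-5 replicate 1 or 2 or bak1-1D replicate 1 or 2 (adjusted p up to 0.0831 and 0.0863).

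Between the suppressor lines, 5 of the 29 were called in bak1-1D against bri1-1D, where 10.1% of all probe sets were called, and all 5 were higher, where 5.85% were. The median difference was 0.08 beside -0.04. AT1G72900 was 1.11 higher (adjusted p = 1.95e-05), AT3G04210 1.00 higher (adjusted p = 0.0293) and AT5G22690 0.82 higher (adjusted p = 0.000556). AT4G19530, with 0.79, had the same sign, and AT5G45060 stood at -0.06. The call of AT3G04210 ended without bri1-1D replicate 1 or 3 or any 1 bak1-1D array (adjusted p up to 0.104).

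None of the 29 was called in brs1-1D against bri1-1D, where 2.17% of all probe sets were called, and 6 had an unadjusted limma p under 0.05, where 16.8% of all probe sets had one. The count was 1 without bri1-1D replicate 1 or 2 or bak1-1D replicate 2. In brs1-1D against bak1-1D, 8 were called, 3 higher and 5 lower, where 7.98% of all probe sets were called. AT1G63750 was lower by -0.80 (SE 0.11, adjusted p = 0.000491) and AT1G72900 by -0.79 (adjusted p = 0.000472), while AT1G57630 was higher by 0.58 (SE 0.17, adjusted p = 0.0428). The count was 3 without bak1-1D replicate 2 and 5 without brs1-1D replicate 2 or 3. The call of AT1G57630 ended in 11 of the alternative fits, with adjusted p up to 0.171.

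**Figure D4:**
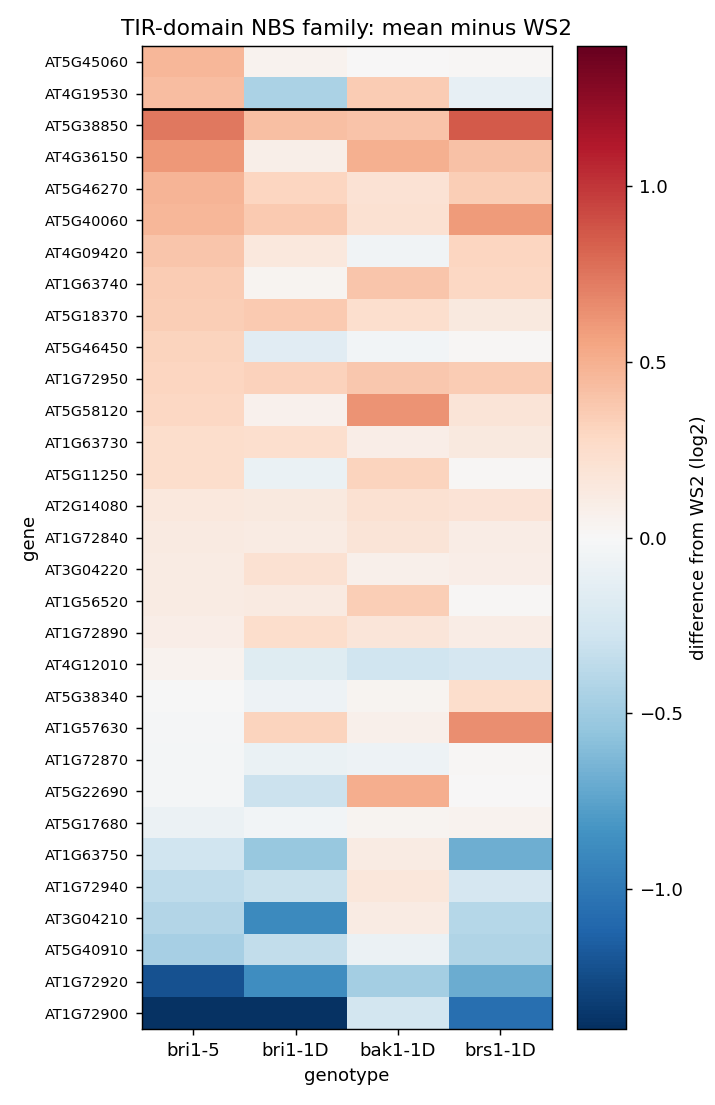
Genotype mean minus WS2 mean (log2, colour) for AT5G45060 and AT4G19530 (above the line) and the 29 other tested TIR family genes (below, ordered by the difference in bri1-5). The colour of AT5G45060 is strong in bri1-5 only (0.47), AT4G19530 changes sign between bri1-5 (0.43) and bri1-1D (-0.44), and AT1G72900 and AT1G72920 at the foot are palest in bak1-1D.

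Over the 15 arrays, the correlation of AT5G45060 with the 29 family genes ranged from -0.63 (AT1G72920) to 0.51 (AT4G36150), with a median of 0.10. For AT4G19530 it ranged from -0.44 (AT1G57630) to 0.75 (AT5G11250), with a median of 0.17. The points are arrays that share genotypes, so these values are descriptions.

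Of the other immune receptors tested, 3 of 4 rose in bri1-5 against WS2, where 17.6% of all tested probe sets were called and 9.45% were called higher. Of the 41 genes with a coiled-coil or RPW8 domain in place of the TIR domain, 17 had a probe set of their own and 4 were tested. LOV1, a coiled-coil receptor that gives sensitivity to the fungal toxin victorin, rose by 0.72 in bri1-5 (SE 0.12, adjusted p = 0.00109), 0.51 in bri1-1D (adjusted p = 0.00865) and 0.72 in brs1-1D (adjusted p = 0.000711). Its difference in bak1-1D was 0.37 (adjusted p = 0.0705). AT5G47250 rose in bri1-5 by 0.42 (SE 0.09, adjusted p = 0.00419), in bak1-1D by 0.39 (adjusted p = 0.0119) and in brs1-1D by 0.31 (adjusted p = 0.0201). AT3G14470 was called higher in all 4 mutants, by 0.47, 0.44, 0.51 and 0.40 in bri1-5, bri1-1D, bak1-1D and brs1-1D, with adjusted p from 0.0256 to 0.0494. It was dim, at 3.94 to 4.31 in WS2, around the filter of log2 4, and at 4.27 to 4.76 in bri1-5. AT1G53350 was not called in bri1-5 (0.31, adjusted p = 0.0688), but it was with the replicate number as a block (adjusted p = 0.0323). None of these 4 was called in a comparison between mutant lines. Their calls against WS2 share the WS2 arrays.

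The calls of LOV1 and of AT5G47250 in bri1-5 held whichever array was left out. The call of AT5G47250 ended in bak1-1D without bak1-1D replicate 1 (adjusted p = 0.055) and in brs1-1D without WS2 replicate 3 or brs1-1D replicate 1 (up to 0.0782). The calls of AT3G14470 ended in every mutant without WS2 replicate 1 or 3. They also ended without replicate 1 or 3 in bri1-5 (adjusted p up to 0.124) and bak1-1D (up to 0.104), without replicate 1 or 2 in bri1-1D (up to 0.117), and without any 1 of 10 arrays in brs1-1D (up to 0.16). With only the 2 genotypes compared, adjusted p for AT3G14470 was 0.0533 in bri1-5 and 0.0568 in bri1-1D. In brs1-1D its call ended in 16 of 23 alternative fits, the 10 arrays left out and 6 other settings, among them no filter, median centring and the replicate block.

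Of the 19 genes that signal below TIR receptors or regulate receptor levels, only SAG101 and SGT1A were tested. SAG101, a partner of EDS1, stood 0.29 above WS2 in bri1-5 (SE 0.11, adjusted p = 0.0853), and neither it nor SGT1A, a co-chaperone of immune receptors, was called in any of the 10 comparisons. Of the 22 salicylic acid defence genes, WRKY53, a transcription factor of defence and senescence, was the only one tested. It was 0.93 higher in bak1-1D than in WS2 (SE 0.22, adjusted p = 0.013), with values of 9.45 to 9.72 against 8.32 to 9.0. It was 0.82 higher than in bri1-5 (adjusted p = 0.042), 0.74 higher than in bri1-1D (adjusted p = 0.0394), and brs1-1D lay below bak1-1D by -0.91 (adjusted p = 0.0163). The WRKY53 call against WS2 ended without WS2 replicate 2 (adjusted p = 0.0692), and that against bri1-5 without any 1 of 10 arrays (up to 0.13). The call against bri1-1D ended without bri1-1D replicate 2, where the difference was 0.44 (adjusted p = 0.149), without bri1-1D replicate 3 or without any 1 bak1-1D array. That between brs1-1D and bak1-1D ended without replicate 1 or 3 of either line (adjusted p up to 0.064). Of the receptor genes, AT5G45060 stood at its WS2 level in bak1-1D (0.00), and AT4G19530 stood 0.35 above WS2.

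Few genes next to AT5G45060 and AT4G19530 could be read. The 10 protein-coding genes on each side of each were taken from the RefSeq gene table of assembly TAIR10.1. Of the 20 around AT5G45060, 7 had a probe set of their own and 2 were tested. The adjacent gene on the lower side, TTR1 (WRKY16), a TIR receptor that carries a WRKY domain, had no probe set of its own and was not analysed here. CYTC6A, the cytochrome c6A gene that lies 2 genes away, was 0.34 higher in bak1-1D than in bri1-1D (SE 0.10, adjusted p = 0.0445). This call ended in 10 of the leave-one-out fits, with adjusted p up to 0.168 over all alternatives. AT5G45020 was not called in any comparison.

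Of the 20 genes around AT4G19530, 13 had a probe set of their own and 2 were tested. The 3 family genes next to it, AT4G19500, AT4G19510 and AT4G19520, all lay under the filter on all 15 arrays, at 3.17 to 3.49, 3.12 to 3.60 and 3.21 to 3.85. Their probe sets thus give no level to set beside the changes of AT4G19530. AT4G19450 and AT4G19610 were not called in any comparison. The nearest to a call was AT4G19610 in brs1-1D minus WS2, at -0.38 (SE 0.14, adjusted p = 0.0662).

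Among the 8623 other tested probe sets with a single gene, the 5 with the highest Pearson correlation with AT5G45060 over the 15 arrays were AT5G15790 (r = 0.84), AT2G07180 (0.79), AT4G12640 (0.78), AT4G13270 (0.78) and SETH3 (0.77). All 5 had every bri1-5 array above the 12 others, a pattern favoured by their choice for likeness to AT5G45060. AT2G07180, for example, stood at 9.01 to 9.12 in bri1-5 and at 8.63 to 8.97 elsewhere. Within genotypes, correlations of the deviations from the genotype means were 0.47, 0.41, -0.10, 0.21 and 0.34 in the same order. The lowest correlations were those of AT4G27652 (-0.84) and AT3G22540 (-0.83), whose lowest means were in bri1-5, at 5.5 to 5.96 and 4.95 to 5.05.

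AT4G19530 was most like AT5G24210 (r = 0.87), AT3G45260 (0.85), AT1G10020 (0.84), CYTC6A (0.83) and AT1G35350 (0.81). CYTC6A is the neighbour of AT5G45060 on chromosome 5 described above, not of AT4G19530 on chromosome 4. All 5 had their lowest mean in bri1-1D, a pattern favoured by their choice for likeness to AT4G19530. For CYTC6A that mean was 7.96, beside 7.97 in brs1-1D. AT1G35350 stood at 6.55 to 6.66 in bri1-1D, 7.34 to 7.40 in bri1-5 and 7.68 to 7.92 in bak1-1D. Here the deviations from the genotype means correlated as well, with 0.61, 0.65, 0.80, 0.71 and 0.45 in the same order. The lowest correlations were those of AT1G72500 (-0.87) and AT1G54120 (-0.83), which both had their highest mean in bri1-1D, at 7.99 to 8.28 and 6.76 to 6.87. The points of all these correlations share genotypes and arrays, and the genes were picked as the extremes of 8623.

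**Figure D5:**
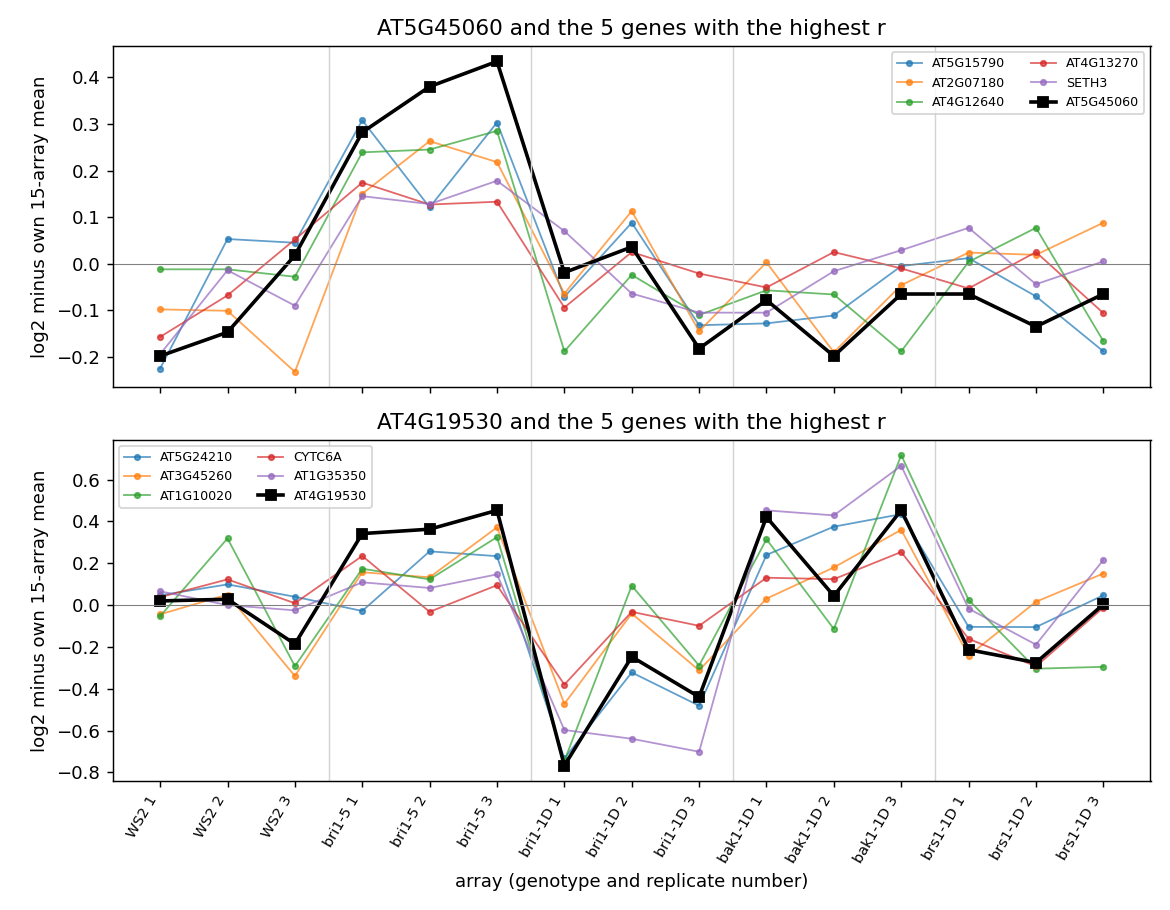
Log2 level on each array minus the gene's own mean over the 15 arrays, for AT5G45060 (top) and AT4G19530 (bottom) in black and the 5 genes most like each in colour; lines only join points of a gene, and replicates have no order. The top panel has one plateau, the 3 bri1-5 arrays with AT5G45060 at 0.28 to 0.43 above its mean, and the bottom panel has its low point in bri1-1D, with AT4G19530 at -0.77 to -0.25.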

How the data were processed

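RNA of whole seedlings was read on Affymetrix ATH1 arrays, 3 for each of 5 genotypes. The authors deposited 1 log2 value for each probe set and array, obtained with GCRMA per the submitters' processing notes, a method that subtracts background by probe sequence, brings arrays to 1 distribution and merges the probes of a set. The sources used here give neither its version nor its settings. No counts stand behind array values, so the number of arrays limits their precision. Probe sets were named from the platform annotation: 13513 of 22810 list 1 gene, 503 several and 8730 none beside 64 controls, and 13436 matched a locus by Entrez ID. Whether a probe set also binds transcripts of related family genes was not tested.

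A linear model was fitted with limma 3.58.1 (R 4.3.3; lmFit, then eBayes) to 15912 probe sets above log2 4 on at least 3 of 15 arrays, with 1 mean per genotype and no replicate block. Calls used a Benjamini-Hochberg adjusted p under 0.05 over all of them. The steps were tested on simulated data. Both genes and all lists were chosen with earlier results of these data known, and the family list was written from general knowledge. Named were both genes, tested genes among 10 neighbours on each side, the 3 called family genes with the largest difference in a comparison, up to 3 called genes of each other immune list, and the 5 most and 2 least correlated genes. Genes named outside this rule were chosen after their values were seen.

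Replicate numbers come from the sample titles, because descriptions in 2 genotypes repeat one number. Deviations of same-number arrays from their genotype means correlated above 0.1 in all 3 pairs where bri1-5 was set against WS2, bri1-1D or brs1-1D (0.103 to 0.346), and at -0.212 to 0.344 in the other 7 genotype pairs. The labels tie no batch to the numbers. Alternatives were no filter, a filter at log2 6, median centring, quantile normalization, an intensity trend, array weights, only the 2 genotypes compared, a replicate block, a floor on low values, and each array left out.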

Additional observations from a re-analysis of the deposited data

How the results depend on the processing

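The 20 differences of AT5G45060 and AT4G19530 moved by less than the replicate SD in all 300 alternative values. This outcome was largely fixed beforehand and is no measure of stability. The filters, the intensity trend, the replicate block, the floor and the fit of only the compared genotypes leave these differences unchanged. Without 1 array, a genotype mean shifts by less than the SD of that genotype. Leaving out 1 array moved bri1-5 minus WS2 between 0.43 and 0.54 for AT5G45060 and between 0.36 and 0.47 for AT4G19530, and bri1-1D minus bri1-5 between -0.99 and -0.73 for AT4G19530. Its bak1-1D minus bri1-5 ran from -0.15 to 0.05. Of 36 calls of named other genes, 18 were lost in no alternative that tested the gene and none reversed. Of these 18, 9 were not tested by the filter at log2 6.

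The counts of called genes varied between the alternatives. Over all probe sets, leaving out 1 array gave 1761 to 2922 in place of 2799 for bri1-5 minus WS2, 828 to 1678 (1595) for bak1-1D minus WS2, 6 to 47 (39) for bri1-1D minus bri1-5, 321 to 736 (690) for bak1-1D minus bri1-5, 112 to 368 (273) for brs1-1D minus bri1-5, 909 to 1650 (1611) for bak1-1D minus bri1-1D, 81 to 418 (346) for brs1-1D minus bri1-1D and 719 to 1366 (1270) for brs1-1D minus bak1-1D. With array weights, 3783 were called for bri1-5 minus WS2 and 2161 for bak1-1D minus WS2. The weights also gave 61 for bri1-1D minus bri1-5, 1256 for bak1-1D minus bri1-5, 457 for brs1-1D minus bri1-5 and 196 for brs1-1D minus bri1-1D. Only the 2 genotypes gave 6 for bri1-1D minus bri1-5, 1071 for bak1-1D minus bri1-1D and 136 for brs1-1D minus bri1-1D. Median centring shifted the split from 1503 higher and 1296 lower to 1152 and 1605 for bri1-5 minus WS2, and from 468 and 222 to 583 and 157 for bak1-1D minus bri1-5.

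For the 29 TIR family genes, leaving out 1 array gave 5 to 10 for bri1-5 minus WS2 (8 in the full fit), 4 to 8 for bri1-1D minus WS2 (8), 1 to 6 for bak1-1D minus WS2 (7), 1 to 5 for bak1-1D minus bri1-5 (4), 0 to 2 for brs1-1D minus bri1-5 (0), 0 to 1 for brs1-1D minus bri1-1D (0) and 3 to 9 for brs1-1D minus bak1-1D (8). The filter at log2 6, which tests fewer of them, gave 2, 3, 1 and 3 for bri1-5, bri1-1D, bak1-1D and brs1-1D minus WS2, 2 for bak1-1D minus bri1-5 and 4 for brs1-1D minus bak1-1D. With array weights, 9 family genes were called higher and 3 lower for bri1-5 minus WS2, more than the 8 of the full fit. Array weights gave 8 for bak1-1D minus bri1-5 and 2 for brs1-1D minus bri1-5, the intensity trend 1 for brs1-1D minus bri1-5, and only the 2 genotypes 5 for brs1-1D minus bak1-1D. Pairing by replicate block gave 7 for bak1-1D minus bri1-5, 8 for bak1-1D minus bri1-1D, 1 for brs1-1D minus bri1-1D, 1 for brs1-1D minus bri1-5, and 410 probe sets for brs1-1D minus bri1-5. For bri1-5 minus WS2 the block gave 10 family genes and 3323 probe sets, and for bri1-1D minus bri1-5 it gave 0 and 27. The labels tie no batch to the replicate numbers in any genotype pair, so what same-number arrays share is not known. Deviations of same-number arrays also correlated between bri1-1D and WS2, at 0.344, 0.259 and 0.077, a pair outside the 3 with all values above 0.1. Lower calls of family genes in bak1-1D appeared with array weights (1 against WS2, 2 against bri1-5), only the 2 genotypes (1 and 1), the block (1 against bri1-5), the floor (1 against WS2) and without WS2 replicate 3, brs1-1D replicate 2 or bri1-5 replicate 2 (1 each).

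For the other immune lists, leaving out 1 array gave 1 to 4 for bak1-1D minus WS2 (3), 1 to 2 for bri1-1D minus WS2 (2), 1 to 3 for brs1-1D minus WS2 (3), and 0 to 1 for bak1-1D minus bri1-5, bak1-1D minus bri1-1D and brs1-1D minus bak1-1D (1 each). The filter at log2 6 gave 1 for bri1-5, bri1-1D and brs1-1D minus WS2, array weights 2 for bak1-1D minus bri1-5, and only the 2 genotypes 1 for bri1-1D minus WS2 and 0 for bak1-1D minus bri1-1D. For the neighbours, bak1-1D minus bri1-1D gave 0 without the filter and with only the 2 genotypes and 0 to 1 without 1 array. For brs1-1D minus WS2, median centring, quantile normalization and the replicate block gave 1, and leaving out 1 array 0 to 1. For brs1-1D minus bak1-1D, centring, quantile normalization and the trend gave 1, and leaving out 1 array 0 to 1. The block gave 1 for brs1-1D minus bri1-1D. The causes of these changes, other than the fewer genes or arrays, were not tested.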
